A study of Rattus norvegicus with 9 samples.

Results

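The 10 genes described here encode the enzymes, glucose transporters and coactivator by which the liver makes glucose and stores it as glycogen: Pck1, Pck2, Pc, Fbp1, G6pc, Slc37a4, Slc2a2, Gys2, Pygl and Ppargc1a. They were found by gene symbol in a table of 32883 genes, where each symbol had 1 row, and the choice of these genes was made with earlier results of these data known. All 10 passed the filter on low counts and were among the 14089 genes tested.

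Bulk liver RNA was sequenced from 9 rats in a study of acute-on-chronic liver failure (ACLF), with 3 livers in each of 3 groups. The methods of the study list its rats as male Sprague-Dawley animals aged 8 to 11 weeks. The normal group was labelled only as livers of normal rats, and whether they had a sham operation, heparin or anaesthesia is not given in the sources used here. Both ACLF groups were rats whose common bile duct had been ligated for 21 days and which then received lipopolysaccharide (LPS) at 0.25 mg/kg. Starting 1 h after LPS, the blood of both ACLF groups was passed through an extracorporeal circuit for 2 h under heparin and isoflurane. In the empty group the circuit held an empty column. In the UTOpiA group it held cellulose acetate beads, which take up granulocytes and monocytes, and alginate-encapsulated hepatocyte-like organoids made from human induced pluripotent stem cells that had been genetically edited. ACLF livers came from rats still alive 24 h after LPS, so each ACLF value describes survivors, and ligation, LPS and circulation cannot be told apart when an ACLF group is set against normal livers. Feeding state and time of day, to which several of these genes respond, are not given in the sources used here.

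In gluconeogenesis the liver rebuilds glucose from lactate, glycerol and amino acids during fasting. The path runs along glycolysis in reverse, except at a few irreversible steps that need enzymes of their own. Pyruvate carboxylase (Pc) and phosphoenolpyruvate carboxykinase (Pck1 in the cytosol, Pck2 in mitochondria) go around pyruvate kinase, fructose-1,6-bisphosphatase (Fbp1) goes around phosphofructokinase, and glucose-6-phosphatase (G6pc), which is fed by the glucose-6-phosphate transporter Slc37a4 (G6PT), takes the last step to free glucose. It then leaves through Slc2a2 (GLUT2). Glycogen synthase (Gys2) and glycogen phosphorylase (Pygl) build and break down the glycogen store. Glucagon and glucocorticoids raise transcription of Pck1 and G6pc, in part through the coactivator PGC-1alpha (Ppargc1a), and insulin lowers it.

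Promoter sequence is shown for the 3 genes of the 10 whose window held a match to a motif searched for, because Pck1 was the gene that rose, while G6pc and Ppargc1a, commonly named beside it as fasting genes, did not pass the test. The 250 bases before the annotated start are from RefSeq on build GRCr8, plus strand, 5′ to 3′, with the match in capitals. The Pck1 window is chr3:182348322-182348571, the G6pc window chr10:86807409-86807658 and the Ppargc1a window chr14:63634058-63634307.
Pck1: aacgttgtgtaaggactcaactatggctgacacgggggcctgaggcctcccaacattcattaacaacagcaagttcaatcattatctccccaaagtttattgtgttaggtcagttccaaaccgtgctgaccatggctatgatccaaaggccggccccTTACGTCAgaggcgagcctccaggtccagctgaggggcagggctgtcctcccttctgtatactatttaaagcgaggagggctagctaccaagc
G6pc: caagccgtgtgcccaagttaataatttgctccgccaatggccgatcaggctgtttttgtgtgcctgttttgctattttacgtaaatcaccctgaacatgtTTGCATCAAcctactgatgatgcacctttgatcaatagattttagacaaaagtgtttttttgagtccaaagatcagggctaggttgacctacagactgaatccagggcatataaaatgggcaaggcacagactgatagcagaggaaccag
Ppargc1a: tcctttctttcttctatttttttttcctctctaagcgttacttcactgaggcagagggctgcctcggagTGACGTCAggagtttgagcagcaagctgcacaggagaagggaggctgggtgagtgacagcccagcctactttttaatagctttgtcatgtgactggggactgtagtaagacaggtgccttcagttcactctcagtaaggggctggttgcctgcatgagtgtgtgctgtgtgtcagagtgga
Windows from 250 bases before to 50 after the start were searched on both strands for 4 motifs, and 9 of the 10 genes had a window. The cyclic AMP response element was searched for as TNACGTCA, which the Pck1 window held once, starting 93 bases before the start, and the Ppargc1a window once, read on either strand, 181 bases before the start. It was in 3.25% of 33469 rat windows. A C/EBP motif, TTGCNNCAA, was in the G6pc window 150 bases before the start and in 2.17% of windows. A forkhead motif, GTAAACA (3.78% of windows), and an HNF4 motif, CAAAGTCCA (0.391% of windows), were in no window of these genes. No match overlapped one to another motif, and a match to letters is a description of the window and not of a bound site.

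The libraries held 14241172 to 17321677 counted reads, of which the 10 genes had between 52 counts (Ppargc1a) and 39786 counts (Pck1). Many hepatocyte transcripts took a smaller part of the ACLF libraries, to unequal degrees. Albumin (Alb) took 13.3% to 14.9% of all counts in the normal group, but 1.54% to 3.91% across the ACLF livers. Of 15 hepatocyte markers tested, 8 were called lower in empty livers and 5 in UTOpiA livers against normal livers, with none called higher in either. Markers of cholangiocytes (7 of 7 tested), stellate cells or fibroblasts (7 of 8) and neutrophils (8 of 8) were called higher in the empty group. The markers spread from a log2 fold change of -3.08 (Alb) to -0.05 (Asgr1) in empty livers, and Apob and Asgr1 were above 0 in UTOpiA livers, at 0.16 and 0.26. In bulk RNA, fewer hepatocytes, less RNA per hepatocyte and lower transcripts of single genes cannot be told apart, so comparisons of the 10 genes with normal livers are also given below with the libraries scaled to the hepatocyte markers.

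Against normal livers, Pck1 rose in both ACLF groups, and of the 9 other genes 5 fell in empty livers and 2 in UTOpiA livers. A call needed a fold change above 2 and, in edgeR's quasi-likelihood test with TMM scaling, a p under 0.05 after Benjamini-Hochberg adjustment over all 14089 genes. In the empty group 5 of the 10 genes fell, namely Pygl, Pc, Fbp1, Slc37a4 and Gys2, and Pck1 alone rose. Of all genes tested, 11.1% were called lower and 20.7% higher in that comparison. In the UTOpiA group Pygl and Gys2 fell and Pck1 rose, with 6.81% of all genes called lower and 18.2% higher. Over the 10 genes the median log2 fold change was -0.82 in empty livers and -0.64 in UTOpiA livers, where that of all genes was 0.04 and 0.05. These comparisons share the normal livers, so their likeness is not independent.

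**Figure D1:**
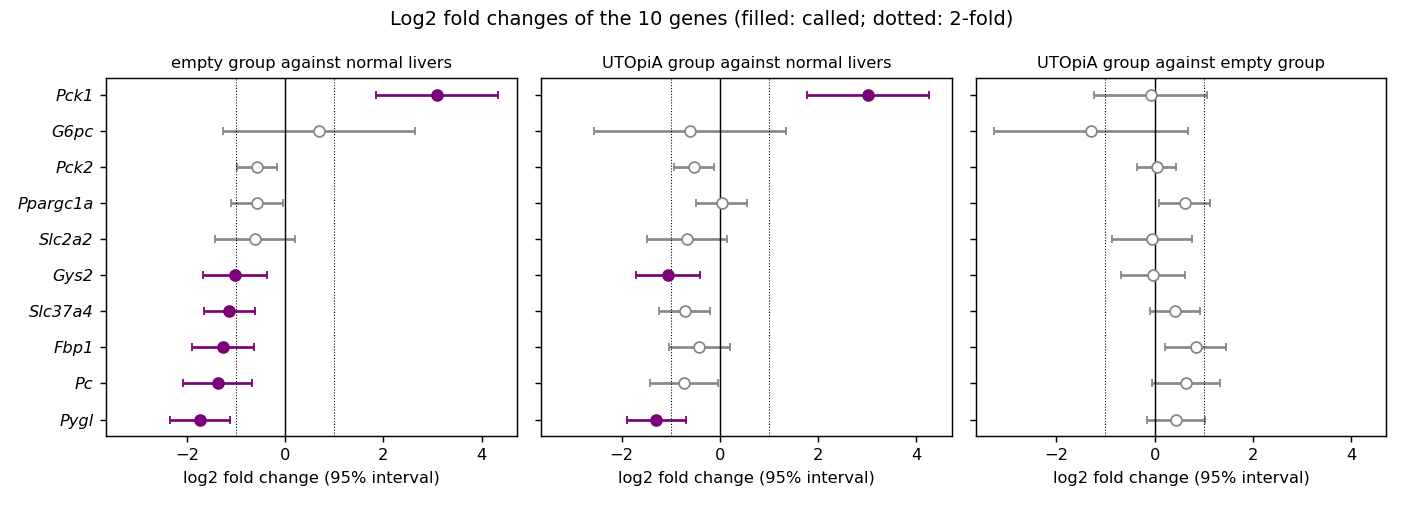
Log2 fold change of the 10 genes in the 3 comparisons, with 95% intervals (edgeR, TMM scaling, n = 3 livers per group). Filled points passed the adjusted p and the 2-fold threshold, and dotted lines mark 2-fold. Pck1 stands alone to the right in both comparisons with normal livers (3.10 and 3.02), 5 genes in empty livers and 2 in UTOpiA livers are filled to the left, and no point is filled between the ACLF groups. With hepatocyte-marker scaling no point to the left would be filled, and 7 of the 8 genes left of 0 in the empty group would lie to the right of it.

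Of the genes at the entry to the pathway, Pck1 alone rose. Pck1 (ENSRNOG00000028616), the cytosolic carboxykinase, was at 57.2, 72.6 and 152 TPM in the 3 normal livers, at 879, 1648 and 945 TPM in the empty group and at 1673, 684 and 531 TPM in the UTOpiA group. Every ACLF liver was above every normal liver, and the ACLF groups overlapped. The log2 fold change against normal livers was 3.10 in the empty group (SE 0.55, edgeR adjusted p = 0.0018), or 8.58-fold, and 3.02 in the UTOpiA group (SE 0.55, edgeR adjusted p = 0.0029), or 8.10-fold. Pck1 was called higher under all 16 alternatives of each comparison, with a UTOpiA value of 2.38 without UTOpiA replicate 1, and with hepatocyte-marker scaling its log2 fold change was 4.43 (SE 0.47) and 3.87 (SE 0.46). Between the ACLF groups the log2 fold change was -0.08 (SE 0.51), with a 95% interval of -1.23 to 1.06 that covers a 2-fold difference either way, and it turned to 0.28 without empty replicate 2 and to 0.18 or 0.13 when UTOpiA replicate 2 or 3 was left out, and went to -0.73 without UTOpiA replicate 1. Within groups Pck1 was among the more variable genes, with the highest UTOpiA liver 3.15 times the lowest and the highest normal liver 2.67 times the lowest.

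Pck2 (ENSRNOG00000018536), the mitochondrial isozyme, did not share that rise. It was at 14.8, 13.9 and 14.8 TPM in normal livers, at 14.8, 10.99 and 16.3 TPM in the empty group and at 10.9, 14.6 and 11.9 TPM in the UTOpiA group. In TPM the 3 groups overlapped. On the TMM scale its log2 fold change was -0.57 in the empty group (SE 0.18, edgeR adjusted p = 0.025) and -0.53 in the UTOpiA group (SE 0.18, edgeR adjusted p = 0.041), under the 2-fold threshold, and it turned to 0.90 and 0.43 with hepatocyte-marker scaling. The ratio of Pck1 to Pck2 within a liver does not depend on how libraries are scaled. It was 3.86, 5.21 and 10.3 in normal livers, between 58.0 and 150 in the empty group and between 44.5 and 153 in the UTOpiA group. Its log2 value differed from normal livers by 3.76 and 3.53, without overlap, where the exact permutation test gave its smallest possible p of 0.1 (adjusted over 30 ratio tests, 0.231).

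Pc (ENSRNOG00000019372) makes the oxaloacetate that the carboxykinases use. Its level was 230, 194 and 214 TPM in normal livers, 141, 115 and 92.8 TPM in the empty group and 197, 113 and 154 TPM in the UTOpiA group. All empty livers were below all normal livers, while UTOpiA replicate 1 lay within the normal range in TPM. Pc fell in the empty group by 1.37 on the log2 scale (SE 0.32, edgeR adjusted p = 0.0060). In the UTOpiA group the log2 fold change was -0.73 (SE 0.31, edgeR adjusted p = 0.088), which did not pass. With hepatocyte-marker scaling the values turned to 0.03 and 0.13. Lrfn4, on the opposite strand within the Pc locus, had 16 to 89 counts per library.

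**Figure D2:**
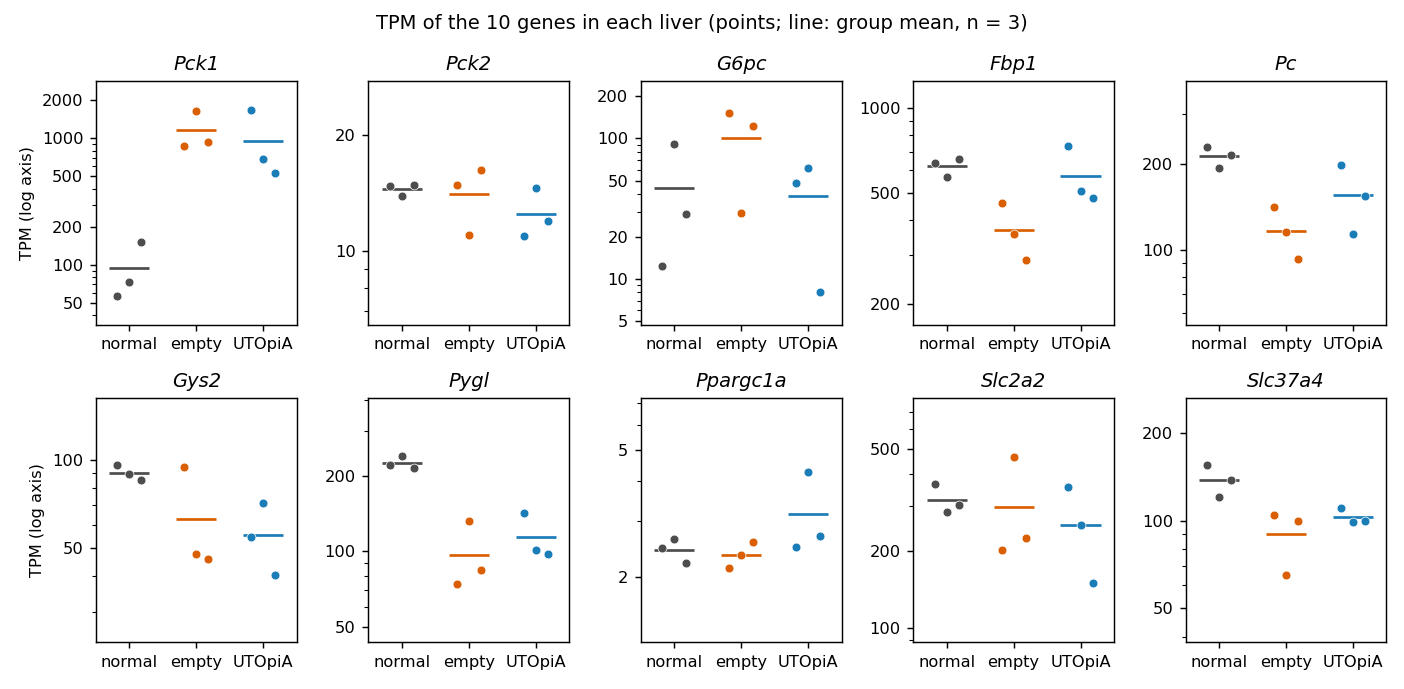
TPM of each of the 10 genes in each of the 9 livers, on log axes that differ between panels. Points are livers in replicate order 1 to 3 and lines are group means (n = 3). Pck1 is at or above 531 TPM in all ACLF livers and at most 152 TPM in normal livers, Pygl of all ACLF livers lies below the normal livers, and G6pc spreads widely in every group.

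Further along the path, Fbp1 (ENSRNOG00000017597) had the highest level of the 10 genes in normal livers. It was at 638, 567 and 657 TPM there, at 459, 355 and 287 TPM in the empty group and at 736, 507 and 478 TPM in the UTOpiA group. Empty livers were all below the other 6 in TPM, and UTOpiA livers overlapped normal livers. On the TMM scale the ACLF groups overlapped. Fbp1 fell in the empty group by 1.26 on the log2 scale (SE 0.28, edgeR adjusted p = 0.0052). Against normal livers the UTOpiA group gave a log2 fold change of -0.42 (SE 0.28, edgeR adjusted p = 0.25). Those values turned to 0.15 and 0.48 with hepatocyte-marker scaling. Set against the empty group, UTOpiA livers had a log2 fold change of 0.84 (SE 0.28, 95% interval 0.21 to 1.46), with an unadjusted p of 0.014 and an edgeR adjusted p of 0.40, which did not pass.

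G6pc (ENSRNOG00000051171), the catalytic subunit that releases free glucose, varied more within groups than between them. It was at 12.3, 91.1 and 29.0 TPM in normal livers, at 150, 29.2 and 123 TPM in the empty group and at 47.9, 61.4 and 8.02 TPM in the UTOpiA group. The highest liver of a group was 5.15 to 7.66 times the lowest, and all groups overlapped. Of the genes tested, 98.8% had a smaller SD of log2 CPM among the normal livers, 96.3% in empty livers and 97.7% in UTOpiA livers. The log2 fold change was 0.69 (SE 0.86, edgeR adjusted p = 0.53) in the empty group and -0.60 (SE 0.86, edgeR adjusted p = 0.61) in the UTOpiA group, with intervals of -1.27 to 2.64 and -2.56 to 1.35. Without normal replicate 2 the values were 1.75 and 0.46, and hepatocyte-marker scaling gave 2.21 and 0.46, so the UTOpiA value turned in both settings. Both intervals against normal livers reached past 2-fold either way, so a change of that size was not excluded. Between the ACLF groups the log2 fold change was -1.29 (SE 0.87, 95% interval -3.26 to 0.68). A gene model that spans G6pc on the same strand, AC123346.1, had 5 to 95 counts where G6pc had 199 to 4040.

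The glucose-6-phosphate transporter Slc37a4 (ENSRNOG00000011361) hands G6pc its substrate. Its level was 155, 120 and 138 TPM in normal livers, 104, 65.3 and 99.97 TPM in the empty group and 111, 98.7 and 99.7 TPM in the UTOpiA group. Every ACLF liver was below every normal liver. Slc37a4 fell in the empty group by 1.13 on the log2 scale (SE 0.23, edgeR adjusted p = 0.0034), and the fall was -0.96 and under 2-fold without empty replicate 2. For the UTOpiA group the log2 fold change was -0.72 (SE 0.23, edgeR adjusted p = 0.034), which passed the adjusted p but not the fold. Hepatocyte-marker scaling turned both to 0.35 and 0.20.

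Slc2a2 (ENSRNOG00000011875), the exit for glucose at the cell surface, showed no call. It was at 366, 285 and 302 TPM in normal livers, at 202, 465 and 224 TPM in the empty group and at 357, 253 and 150 TPM in the UTOpiA group. Empty replicate 2 was above all normal livers, and the other two empty livers were below them. The log2 fold change was -0.61 (SE 0.37, edgeR adjusted p = 0.19) in the empty group and -0.67 (SE 0.37, edgeR adjusted p = 0.17) in the UTOpiA group. Without empty replicate 2 the former became -1.11 (edgeR adjusted p = 0.013), which passes, and with hepatocyte-marker scaling the values turned to 0.71 and 0.27.

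Both enzymes of the glycogen store were lower in ACLF livers. Pygl (ENSRNOG00000006388), which releases glucose-1-phosphate from glycogen, had the strongest fall of the 10 genes in each comparison with normal livers. Its level was 221, 239 and 215 TPM in normal livers, 74.3, 132 and 84.6 TPM in the empty group and 142, 102 and 97.7 TPM in the UTOpiA group. All ACLF livers were below all normal livers, and the ACLF groups overlapped. Pygl fell by 1.73 on the log2 scale in the empty group (SE 0.27, edgeR adjusted p = 0.00089) and by 1.29 in the UTOpiA group (SE 0.27, edgeR adjusted p = 0.0048). It stayed below 0 with hepatocyte-marker scaling, at -0.37 and -0.39, without passing the test.

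Gys2 (ENSRNOG00000059753), the liver form of glycogen synthase, was close to the 2-fold threshold. It was at 96.0, 89.8 and 85.6 TPM in normal livers, at 94.7, 47.5 and 45.5 TPM in the empty group and at 54.6, 71.4 and 40.3 TPM in the UTOpiA group. In TPM, empty replicate 1 lay within the normal range, whereas on the TMM scale all ACLF livers were below all normal livers. Gys2 fell by 1.03 on the log2 scale in the empty group (SE 0.29, edgeR adjusted p = 0.017) and by 1.06 in the UTOpiA group (SE 0.29, edgeR adjusted p = 0.018). The call in the empty group was lost without normal replicate 1 (-0.98), empty replicate 2 (-0.86) or empty replicate 3 (-0.80), and the call in the UTOpiA group without normal replicate 1 (-1.01), UTOpiA replicate 1 (-1.05) or UTOpiA replicate 3 (-1.004). Hepatocyte-marker scaling gave 0.40 and -0.06. The within-liver log2 ratio of Gys2 to Pygl differed from normal livers by 0.64 in the empty group (exact permutation p = 0.4) and by 0.26 in the UTOpiA group (exact permutation p = 0.6), with overlap.

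Ppargc1a (ENSRNOG00000004473), the coactivator of the fasting programme, was the lowest of the 10 genes in all groups. It was at 2.47, 2.62 and 2.21 TPM in normal livers, at 2.13, 2.34 and 2.57 TPM in the empty group and at 2.48, 4.28 and 2.70 TPM in the UTOpiA group. The log2 fold change was -0.57 (SE 0.24, edgeR adjusted p = 0.069) in the empty group, which turned to 0.86 with hepatocyte-marker scaling, and 0.04 (SE 0.23, edgeR adjusted p = 0.91) in the UTOpiA group. The UTOpiA value turned to -0.07 without UTOpiA replicate 2 and to -0.02 without UTOpiA replicate 3 or normal replicate 3, and with hepatocyte-marker scaling it was 1.04 (edgeR adjusted p = 0.070). On the TMM scale Ppargc1a was the 1 gene of the 10 whose UTOpiA livers did not overlap the empty livers, a separation that 12.1% of all genes showed. Its log2 fold change there was 0.61 (SE 0.23, 95% interval 0.09 to 1.13), with an unadjusted p of 0.027 and an edgeR adjusted p of 0.44, and in TPM the groups overlapped. At 52 to 108 counts per library, it also had the lowest counts of the 10 genes.

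Set against the empty group, no gene of the 10 was called in the UTOpiA livers. Of all genes 0.0% were called lower and 0.0% higher by edgeR's quasi-likelihood test, 1456 of 14089 had an unadjusted p under 0.05, and DESeq2 called 74 lower and 51 higher. Fbp1 and Ppargc1a were the 2 genes of the 10 with an unadjusted p under 0.05. Over the 10 genes the median log2 fold change was 0.23 and that of all genes 0.00, and 4 of the 10 were below 0. Hepatocyte-marker scaling turned that median to -0.29, with 7 of the 10 below 0 and a median of all genes of -0.46. Without empty replicate 2 edgeR called 22 genes lower and 26 higher, and without UTOpiA replicate 2 it called 17 lower and 32 higher, with none of the 10 genes among them. The 95% intervals of Pck1, G6pc, Fbp1, Pc, Ppargc1a and Pygl reached past 2-fold upward, downward or both ways. A difference of that size between the ACLF groups was therefore not excluded for them. Whether a 2-fold difference could have been detected with 3 livers per group was not tested for any of the 10 genes.

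The order of the levels differed between the groups, most of all in the place of Pck1. In normal livers the mean TPM ran from Fbp1 (621 ± 47.6, SD, n = 3) over Slc2a2 (317 ± 43.0), Pygl (225 ± 12.3), Pc (212 ± 18.1), Slc37a4 (138 ± 17.2), Pck1 (94.1 ± 51.1), Gys2 (90.5 ± 5.198), G6pc (44.1 ± 41.5) and Pck2 (14.5 ± 0.511) to Ppargc1a (2.43 ± 0.210). The livers of neighbours overlapped between Pygl and Pc and along the run from Slc37a4 to Pck2, and the other neighbours were separate. Pck1 was 6th in normal livers and led the order in both ACLF groups, with a mean of 1157 ± 426 TPM in the empty group, apart from Fbp1 below it (367 ± 86.7), and 963 ± 619 TPM in the UTOpiA group, where it overlapped Fbp1 (574 ± 141). G6pc was 8th in normal and UTOpiA livers and 5th in empty livers, and Pygl was 3rd in normal livers, 6th in empty livers and 5th in UTOpiA livers, below Pc in both ACLF groups. In each of these ACLF places the livers overlapped those of the next gene. Pck1 made up 3.19% to 8.42% of the summed TPM of the 10 genes in normal livers, 41.4% to 57.4% in empty livers and 33.8% to 50.2% in UTOpiA livers. The sum of the other 9 genes ran from 1601 to 1735 TPM in normal livers, 976 to 1244 TPM in the empty group and 1043 to 1658 TPM in the UTOpiA group. UTOpiA replicate 1 gave that highest sum and also the highest Pck1 level of all livers.

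Scaling decided the direction of most of the falls, but not that of Pck1. Relative to the normal mean, the mean log2 CPM of the hepatocyte markers was -1.45, -0.98 and -1.78 in the 3 empty livers and -0.71, -1.44 and -0.62 in the 3 UTOpiA livers. In the same livers the median of the 9 genes other than Pck1 was -0.82, -1.27 and -1.12 for the empty livers and -0.46, -0.90 and -0.47 for the UTOpiA livers. Pck1 was between 2.41 and 3.93 above the normal mean in the same 6 livers. Scaled to the markers, 0 of the 10 genes were called lower in either ACLF group, Pck1 stayed called higher, and 9 of 10 in the empty group and 8 of 10 in the UTOpiA group were above 0. That scaling moved the median of all genes to 1.48 and 1.02, and calls became 241 lower and 9571 higher for the empty group, where TMM gave 1560 and 2916. Relative to that shift, Pck1 was 2.95 above the median gene in empty livers and 2.85 in UTOpiA livers. The TPM scale moved the all-gene median to 0.44 and 0.28, and limma on log2(TPM + 1) called Pygl alone lower in the empty group and none of the 10 lower in the UTOpiA group.

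**Figure D3:**
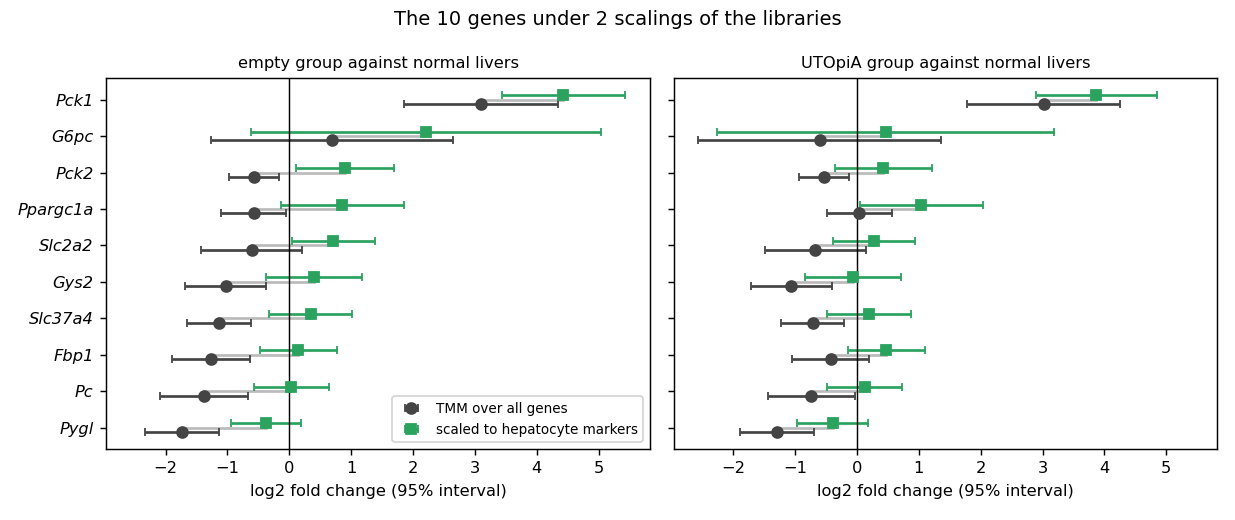
Log2 fold change of the 10 genes against normal livers with TMM scaling over all genes (circles) and with scaling to 15 hepatocyte markers (squares), with 95% intervals (n = 3 livers per group). Pck1 is right of 0 under both scalings, whereas in the empty group Pck2, Ppargc1a, Slc2a2, Gys2, Slc37a4, Fbp1 and Pc cross from left to right and Pygl stays left.

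Among other genes of glycogen metabolism, calls were more often lower than higher, and many genes were not called. Of 19 further glycogen genes tested, 9 fell and 2 rose in the empty group, and 6 fell and 0 rose in the UTOpiA group. Ppp1r3b, the targeting subunit that brings protein phosphatase 1 to glycogen in liver, was at 137 to 152 TPM in normal livers, 8.80 to 15.8 TPM in the empty group and 11.1 to 38.1 TPM in the UTOpiA group. It fell by 4.05 on the log2 scale (SE 0.56, edgeR adjusted p = 0.00062) and by 2.82 (SE 0.53, edgeR adjusted p = 0.0037), without overlap with normal livers. The related subunit Ppp1r3g rose in the empty group, with 0.359 to 0.901 TPM in normal livers and 3.26 to 21.2 TPM there (log2 fold change 3.62, SE 0.81, edgeR adjusted p = 0.0055), and was at 2.46 without empty replicate 2. Its UTOpiA value of 2.02 (SE 0.82, edgeR adjusted p = 0.077) did not pass, but did so with hepatocyte-marker scaling (2.97). The branching enzyme Gbe1 fell in both groups, by 2.46 and 2.24, with 232 to 277 TPM in normal livers and at most 115 TPM in any ACLF liver. Without empty replicate 2 the fall of Gbe1 was -3.21, and without UTOpiA replicate 3 that of Ppp1r3b in the UTOpiA group was -3.57. Ppp1r3c fell by 2.31 in the empty group, a call lost with hepatocyte-marker scaling (-0.86), and its UTOpiA log2 fold change of -1.01 (edgeR adjusted p = 0.15) passed only without UTOpiA replicate 3 (-1.89). With hepatocyte-marker scaling Ppp1r3b and Gbe1 were still called lower in both groups. Of the list 8 genes were then called higher and 2 lower in the empty group, and its median moved from -0.57 to 0.87. That scaling called 9571 of all 14089 genes higher and 241 lower there. The median of all genes was 1.48, above that of the list.

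Reactions shared with glycolysis and the supply of precursors also held more genes called lower than higher. Of 10 shared reversible steps tested, 5 fell and 1 rose (Got1) in the empty group, and 4 fell and 1 rose in the UTOpiA group. The malate dehydrogenases Mdh1 and Mdh2, which carry oxaloacetate out of mitochondria as malate, each fell by 1.24 in the UTOpiA group and by 1.59 and 1.57 in the empty group. Hepatocyte-marker scaling ended these calls, with -0.31 and -0.36 in the UTOpiA group and -0.15 and -0.12 in the empty group. Tpi1 was called lower in the empty group (-1.64, edgeR adjusted p = 0.046), a call lost when any normal liver or empty replicate 1 or 3 was left out, with values from -1.83 to -1.30, or with hepatocyte-marker scaling (-0.33). It had at most 13.3 TPM, is known for near-identical copies in mammalian genomes that can take its reads, and is therefore uncertain. Of 16 precursor genes, 9 fell and 1 rose in the empty group, and 6 fell and 1 rose in the UTOpiA group. The riser in both was Ldhb, a lactate dehydrogenase subunit typical of heart, with 1.73 to 2.14 TPM in normal livers and at least 17.3 TPM in every ACLF liver (log2 fold change 3.998 and 3.77). Gpd1, Gpt2 and the monocarboxylate carrier Slc16a7 fell in both groups, by 2.08, 2.02 and 2.10 in the empty group. With hepatocyte-marker scaling these were -0.57, -0.62 and -0.79, none of them called, and in the UTOpiA group Gpd1 alone of the 3 was still called lower (-1.91). With hepatocyte-marker scaling the medians of both lists turned positive in the empty group, at 0.29 and 0.21, under the 1.48 of all genes.

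**Figure D4:**
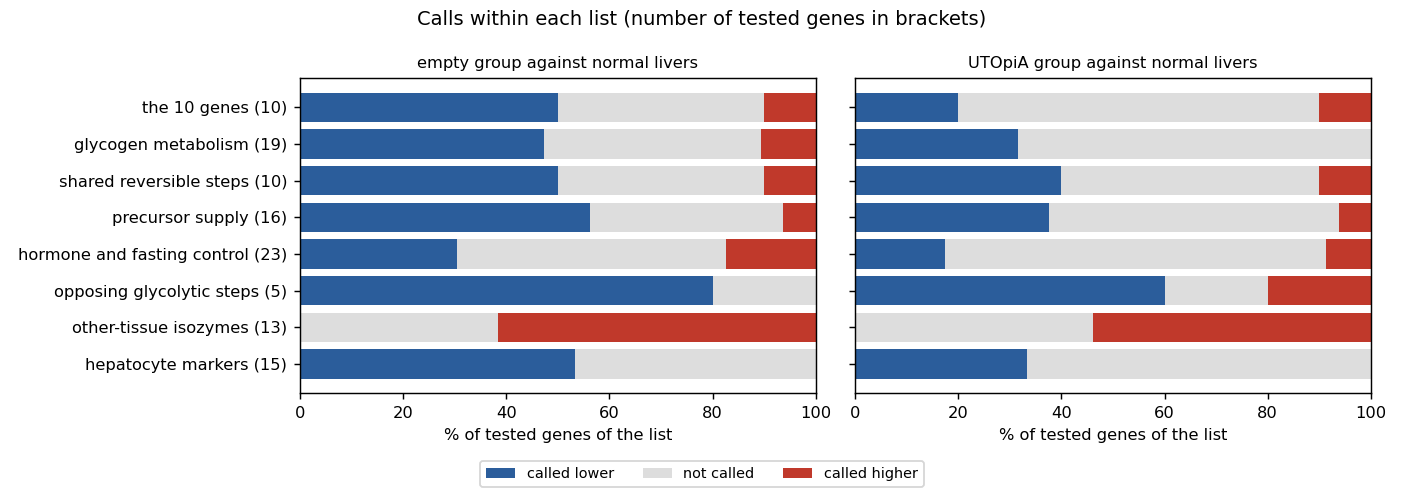
Share of tested genes called lower, not called and called higher within each list against normal livers (edgeR, TMM scaling). The opposing glycolytic genes have the highest share called lower (4 of 5 in the empty group), the other-tissue isozymes have none called lower, and the hepatocyte markers have 8 of 15 called lower in the empty group. With hepatocyte-marker scaling the medians of the glycogen, shared-step, precursor and hormone lists turn positive in both comparisons.

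Of 5 liver genes listed for the opposing glycolytic steps, enzymes and their regulators, 4 fell in empty livers and 3 in UTOpiA livers, where the phosphofructokinase Pfkl rose. The fall of the regulator Gckr in empty livers (-2.13) was no longer called with hepatocyte-marker scaling (-0.78). Liver pyruvate kinase (Pklr), the opponent of Pck1, was at 211 to 299 TPM in normal livers, at 13.4 to 25.2 TPM in the empty group and at 8.55 to 12.3 TPM in the UTOpiA group. It fell in both, with log2 fold changes of -4.36 (SE 0.37) and -4.87 (SE 0.38), and hepatocyte-marker scaling left them at -3.02 and -4.01. Pfkfb1, which makes the activator of phosphofructokinase, fell by 2.69 and 2.40.

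Isozymes typical of other tissues were called higher or not called. Of 13 tested, 8 rose and 0 fell in the empty group, and 7 rose and 0 fell in the UTOpiA group. Pkm, the pyruvate kinase of most tissues other than liver, was at 3.47 to 5.99 TPM in normal livers, at 51.1 to 170 TPM in the empty group and at 42.8 to 133 TPM in the UTOpiA group, a rise of 4.15 and 3.62 on the log2 scale. Hexokinase Hk2, phosphofructokinase Pfkp and Pfkfb3 rose by 4.06, 3.96 and 3.93 in the empty group and by 3.56, 3.76 and 2.503 in the UTOpiA group, where Pfkp was at 3.15 without UTOpiA replicate 2. Markers of other cells rose in the same livers. The summed TPM of the cholangiocyte markers was 14.7 to 24.8 in normal livers, 323 to 670 in empty livers and 134 to 426 in UTOpiA livers. That of the stellate or fibroblast markers was 98.2 to 120, 991 to 1080 and 511 to 1252 in the same order, and that of the neutrophil markers was 11.9 to 14.5, 936 to 2742 and 5551 to 6737. Lcn2, which hepatocytes also make in inflammation, carried most of the UTOpiA sum, at 5359 to 6310 TPM against 290 to 2523 TPM in empty livers, and was singled out after its values were seen. Without Lcn2 the neutrophil markers summed to 8.37 to 9.47 TPM in normal livers, 219 to 1243 TPM in empty livers and 192 to 580 TPM in UTOpiA livers, and the ACLF groups overlapped. Macrophage markers were called higher for 5 of 8 genes in the empty group and 4 of 8 in the UTOpiA group, lymphocyte markers for 4 of 6 in both, and endothelial markers for 1 of 7 in both with 1 called lower. Ltf, of the neutrophil list, was at 0 counts in every liver, and Cxcr2, Mpo and Cd3d were at 0 in all normal livers, while Mpo had at most 3 counts in any ACLF liver. What these cells gave to the isozymes was not tested.

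Because a ratio of TPM inside 1 liver is free of scaling between libraries, 6 of the 10 genes were also set against an isozyme or an opposing enzyme. The smallest p of the exact permutation test with 3 livers against 3 is 0.1, which over 30 tests adjusts to 0.231, so separation of the livers is the most that these ratios can show. Gys2 exceeded Gys1, the muscle form, 37.7 to 57.5 times in normal livers, 8.005 to 16.0 times in the empty group and 7.39 to 13.5 times in the UTOpiA group. Pygl exceeded Pygb 62.4 to 82.1 times in normal livers, against 5.65 to 16.3 and 7.83 to 24.2 times in the ACLF groups. Slc2a2 exceeded Slc2a1 (GLUT1) 110 to 134 times in normal livers, against 11.3 to 14.9 and 13.8 to 32.8 times. These 3 ratios were lower in all ACLF livers than in all normal livers (exact permutation p = 0.1 each). G6pc to G6pc3 and Fbp1 to Fbp2 overlapped in all comparisons.

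Among opposing steps, Pck1 stood at 0.243 to 0.560 times the TPM of Pklr in normal livers and at 55.5 to 70.7 times in the empty group and 45.9 to 136 times in the UTOpiA group. That is a difference of 7.58 and 7.90 on the log2 scale (exact permutation p = 0.1 each). Fbp1 stood at 24.03 to 27.2 times the TPM of Pfkl in normal livers and lower in all ACLF livers, at 5.40 to 7.03 times in the empty group and 6.69 to 13.9 times in the UTOpiA group (exact permutation p = 0.1 each). Pfkl rose in the UTOpiA group (log2 fold change 1.09, edgeR adjusted p = 0.0045) and in the empty group had 0.75 (edgeR adjusted p = 0.019), under 2-fold, or 2.17 and called with hepatocyte-marker scaling.

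**Figure D5:**
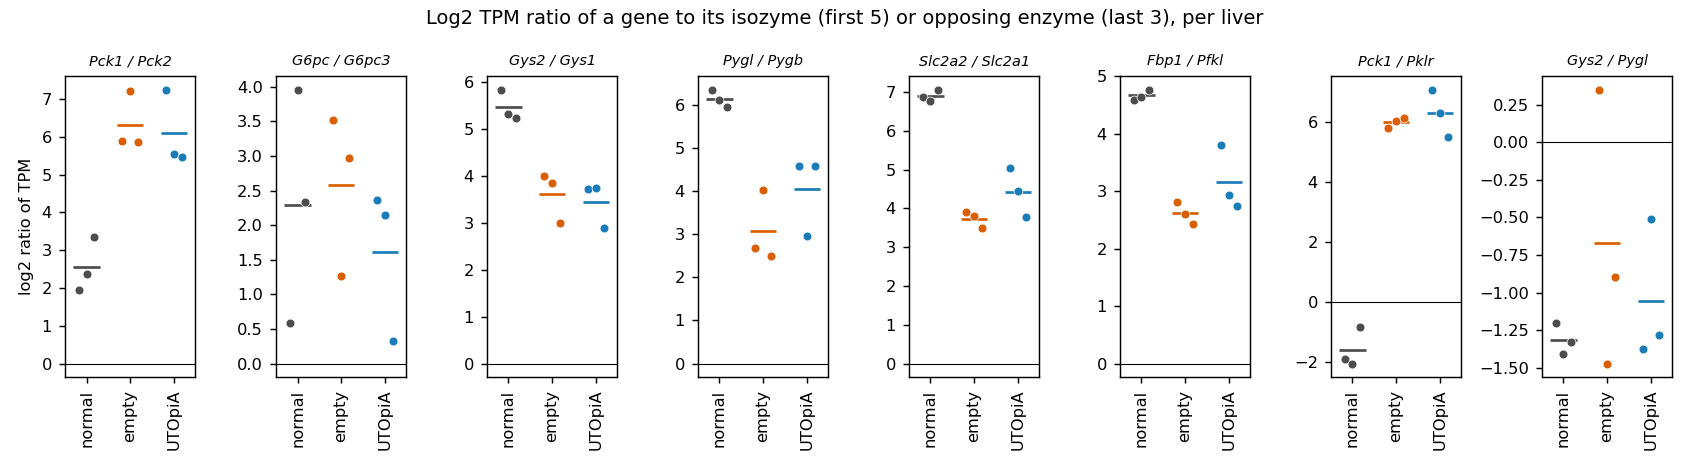
Log2 ratio of TPM within each liver for 5 genes against an isozyme and 3 against an opposing enzyme, with a line at the group mean (n = 3) and axes that differ between panels. Pck1 to Pck2 and Pck1 to Pklr are higher in all ACLF livers than in all normal livers, the ratios of Gys2, Pygl and Slc2a2 to their isozymes and of Fbp1 to Pfkl are lower, and G6pc to G6pc3 and Gys2 to Pygl overlap.

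Genes of hormone and fasting control gave a mixed picture. Of 23 tested, 4 rose and 7 fell in the empty group, and 2 rose and 4 fell in the UTOpiA group. Igfbp1, an insulin-repressed gene that encodes a binding protein of insulin-like growth factors, rose most, with 1.72, 8.77 and 6.08 TPM in normal livers, 1399, 2294 and 911 TPM in the empty group and 322, 805 and 268 TPM in the UTOpiA group. Its log2 fold change was 7.61 (SE 0.75, edgeR adjusted p = 0.00014) and 5.99 (SE 0.70, edgeR adjusted p = 0.00043), and between the ACLF groups -1.62 (SE 0.57, edgeR adjusted p = 0.41). In TPM all UTOpiA livers were below all empty livers. The ACLF groups were apart for 12.1% of all genes on the TMM scale, and the share in TPM was not counted. Irs2, an adaptor of the insulin receptor, rose by 2.48 in the empty group (1.77 without empty replicate 2) and had 1.16 (edgeR adjusted p = 0.11) in the UTOpiA group, which passed with hepatocyte-marker scaling (2.18). Sik1, a cyclic AMP responsive gene, rose in the empty group by 2.39 (edgeR adjusted p = 0.0067) and was called under all 16 alternatives, with 1.47 without empty replicate 2. In the UTOpiA group it rose by 1.83 (edgeR adjusted p = 0.025), a call lost without any of the normal livers, without UTOpiA replicate 1 or 2 and without the filter on low counts (edgeR adjusted p of 0.058 to 0.081). Nr4a1, another such gene, was called higher in the empty group at 4.74, and at 1.71 (edgeR adjusted p = 0.037) without empty replicate 2. The Nr4a1 call was lost without any of the normal livers (4.50 to 4.97), without the filter on low counts (4.74) and with limma on log2(TPM + 1) (2.43). With hepatocyte-marker scaling 11 of the 23 were called higher and 1 lower in the empty group. Of all 14089 genes, 9571 were called higher and 241 lower under that scaling.

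The genes whose pattern over the 9 livers lay nearest to a gene of the 10, by root mean square difference of log2 CPM relative to normal livers, differed in how near they came. For Pck1 they were Sgo2 (0.40), Ube2c (0.41) and Gpr171 (0.45), each at or below 0.27 TPM in all normal livers, where the median gene stood at 2.58. Gys2 had Syde2 (0.22), Primpol (0.22) and Abca1 (0.22), against a median of 1.08, and Ppargc1a had Kif13b (0.12), Zfp397 (0.17) and Baz2a (0.17), against 0.67. No gene came close to G6pc, for which the nearest were Gzma, Zscan2 and Gnb4 at 0.82 to 0.83, against a median of 1.41.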

How the data were processed

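RNA of 9 rat livers was measured by bulk RNA-seq, with 3 libraries labelled as biological replicates in each group, so p-values measure the spread between those rats. The authors deposited read counts per gene without normalisation and TPM, which account for gene length and library size. Submitters' notes name Trimmomatic, HISAT2, featureCounts and rn6, whereas the study's methods name Cutadapt and the mouse build GRCm38, and the library kits named also differ, so no coordinate of the tables is printed. Whether the counting used strand is not given in the sources used here, and reads of overlapping genes may not be separated.

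Counts were fitted with edgeR 4.0.16 in R 4.3.3 (filterByExpr, TMM, all 9 libraries, 1 mean per group, robust quasi-likelihood test, two-sided), which kept 14089 genes. Ratios of TPM (plus 0.01) were compared by a two-sided exact permutation test over livers with scipy 1.17.1. Intervals are 95% and SEs come from the fit. The fits were tested on simulated data before use. In a simulated comparison of UTOpiA with empty livers, 200 of 14089 genes were changed 4-fold. Of those 200, edgeR called 143, DESeq2 164 and limma 147. Unchanged genes called were 6, 39 and 6 in the same order.

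Alternatives were DESeq2 1.42.0, limma 3.58.1 on log2(TPM + 1) or log2(TPM + 0.1), median-of-ratios normalisation, scaling to the hepatocyte markers, other filters, the replicate number as a block, the 2 groups alone, no fold threshold, and each library left out. Same-numbered libraries did not deviate together (correlations of -0.18 to 0.06), so the numbers were not treated as pairs. The 10 genes, lists and tests were chosen with earlier results of these data known. Named beside the 10 genes are, per metabolic list, at most 4 genes with the greatest absolute log2 fold change among those called in the empty group with a mean TPM of at least 1, the partners of the ratios, and the 3 nearest patterns of 4 genes. Got1 was named after its values were seen. Some genes that this rule names are counted in their lists but not reported here. Of 169 listed genes, 6 were not analysed here (Gapdh, Phka2 and 4 markers). Symbols and identifiers are those of the deposited tables.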

Additional observations from a re-analysis of the deposited data

How the results depend on the processing

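Pck1 stayed called higher against normal livers under every alternative run, with log2 fold changes of 2.74 to 4.43 in empty livers and 2.38 to 3.87 in UTOpiA livers. The number of the 10 genes called lower was less firm. It was 5 in the empty group, 1 with limma on log2(TPM + 1), log2(TPM + 0.1) and without the TPM filter, 0 with hepatocyte-marker scaling, 4 with at least 10 counts in every library (Gys2 lost, at -0.93), 6 with no fold threshold and 4 to 5 with a library left out. In the UTOpiA group it was 2, with 0, 1 and 0 under those limma settings, 0 with hepatocyte-marker scaling, 1 with at least 10 counts in every library, 4 with no fold threshold and 1 to 2 with a library left out. Hepatocyte-marker scaling reversed the log2 fold change in the empty group of Pck2 (0.90), Fbp1 (0.15), Pc (0.034), Gys2 (0.40), Ppargc1a (0.86), Slc2a2 (0.71) and Slc37a4 (0.35), and in the UTOpiA group of Pck2 (0.43), G6pc (0.46), Fbp1 (0.48), Pc (0.13), Slc2a2 (0.27), Slc37a4 (0.20) and Tpi1 (0.0667). Between the ACLF groups, where nothing was called, it reversed Pck2 (-0.47), Pygl (-0.0204) and Slc37a4 (-0.15), and the limma settings reversed Pck2 (-0.15, -0.16 and -0.15). With a library left out, the log2 fold change crossed 0 for G6pc (-1.05 to 0.46) and Ppargc1a (-0.0738 to 0.18) in the UTOpiA group against normal livers, and between the ACLF groups for Pck1 (-0.73 to 0.28), Pck2 (-0.10 to 0.14), Gys2 (-0.26 to 0.46) and Slc2a2 (-0.39 to 0.44). Log2 TPM ratios that crossed 0 in the same way were Pck1 to Pck2 between the ACLF groups (-0.81 to 0.22), G6pc to G6pc3 in the empty group (-0.57 to 1.12) and the UTOpiA group (-1.53 to 0.15), Fbp1 to Fbp2 in the empty group (-0.44 to 0.93), Gys2 to Gys1 (-0.48 to 0.12) and Pck1 to Pklr (-0.0705 to 0.71) between the ACLF groups, and Gys2 to Pygl in the UTOpiA group (-0.0124 to 0.42) and between the ACLF groups (-0.78 to 0.13). Fbp1 to Fbp2 also reversed with a pseudocount of 0.1 TPM (-0.0872) or 1 TPM (-0.59) in the empty group and of 1 TPM between the ACLF groups (0.25), Fbp2 being near 0.

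Of 480 log2 fold changes of the 10 genes under alternatives, 416 kept direction and side of the threshold. The replicate block changed no count of the 10 genes called (5 and 1, 2 and 1, 0 and 0) and reversed Gys2 between the ACLF groups (0.0532). The cause of these changes was not tested. Over all genes, against 1560 lower and 2916 higher for empty livers and 959 and 2563 for UTOpiA livers, hepatocyte-marker scaling called 241 and 9571, and 227 and 6450. Limma on log2(TPM + 1) called 693 and 3214, and 487 and 2174, and at least 10 counts in every library left 1179 and 1644, and 701 and 1384, from 11342 genes. Between the ACLF groups edgeR called 0, DESeq2 74 lower and 51 higher, and edgeR 22 and 26 without empty replicate 2, 17 and 32 without UTOpiA replicate 2, and 1 lower without empty replicate 3. Ppargc1a, at 52 to 108 counts per library, had the least depth. Groups of 3 livers are too small for a test of single outlying livers.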
